A study of Mus musculus with 8 samples.

Results

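Gene expression was compared between kidney cells of mice that model autosomal dominant polycystic kidney disease (ADPKD) and those of wild-type (WT) mice, both given vehicle. The cells were freshly isolated for binding Dolichos biflorus agglutinin (DBA), a lectin that marks collecting duct epithelium. Of the 8 libraries of the series, 4 belonged to this comparison, 2 of WT and 2 of ADPKD mice, chosen because their labels give DMSO as the treatment. The other 4 libraries came from mice of the same genotypes given the CREB inhibitor 666-15 at 5 mg/kg. Dosing ran for 3 weeks from postnatal day 11, in cycles of 5 daily doses and 2 days off. The labels name no mutated gene, promoter, Cre driver, strain or sex for the ADPKD mice, and the extraction protocol speaks both of DBA-positive cells and of whole kidney. Nothing in them ties each library to an animal of its own, so p-values measure only the spread between these libraries, which may be technical.

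ADPKD is caused in most families by mutation of PKD1 or PKD2, which encode the polycystins, membrane proteins of the primary cilium and of cell contacts. Tubules widen into cysts lined by epithelium that proliferates, secretes fluid and lays down an altered basement membrane, while inflammatory cells and fibroblasts gather around them. Cyclic AMP is high in cystic epithelium, and CREB is a transcription factor that is switched on downstream of it and binds the cyclic AMP response element, the palindrome TGACGTCA.

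Of 55304 genes in the table, 17440 had enough counts for the test, and 9842 of these (56.4%) differed between ADPKD and WT cells at an adjusted p below 0.05, the threshold for every gene called higher or lower below. ADPKD cells were higher in 5023 genes (28.8% of those tested) and lower in 4819 (27.6%). At least 4-fold differences were called upward in 1011 genes (5.80%) and downward in 1656 (9.50%). These shares are the background for every family below, as is the median log2 fold change of all genes tested, 0.05. Called or not, the libraries of the 2 groups did not overlap in 7245 genes with ADPKD higher (41.5%) and 6701 with ADPKD lower (38.4%). Many genes named below were chosen by a rule that required no overlap, so its mention describes their values and adds no support. A further 12563 genes had counts in a vehicle library but too few to test, and 25301 had none. Among the genes tested, 1020 reached a count of 10 in no WT vehicle library and 1002 in no ADPKD vehicle library, so they passed the filter through another group. Values written as a number ± another are log2 fold changes of ADPKD against WT cells with the standard error of the fit (n = 2 libraries a group), and levels are counts per 1000000 counts of the library (CPM), replicate 1 before replicate 2.

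Total counts were 18995629 and 15984105 in WT and 19702638 and 18877518 in ADPKD cells. Log2 CPM correlated across genes at 0.987 between the WT and 0.980 between the ADPKD libraries, against 0.836 to 0.853 across the genotypes. All 4 libraries had at most 6 counts of Xist, the RNA of the silenced X chromosome, and from 2872 to 3722 of the Y-linked Ddx3y. Among the inhibitor libraries WT replicate 2 stood apart, with 17688 counts of Xist and 0 of Ddx3y. It enters the fit of the vehicle comparison through the filter, the scaling and the estimate of the spread only, and 9839 genes differed with the 4 vehicle libraries alone. Principal cells, the salt- and water-handling cells that DBA marks in the collecting duct, were represented in both genotypes. Their 13 tested markers summed to 1452 and 1845 CPM in WT against 2342 and 1879 in ADPKD cells. The list went in both directions, with 7 higher and 4 lower, among the latter Kcnj1 at 151 and 146 CPM in WT against 6.80 and 8.90 in ADPKD cells. Avpr2, the vasopressin receptor, had 3 and 0 counts in WT and 1 and 0 counts in ADPKD cells. Markers of other segments were present too. Those of the proximal tubule summed to 19004 and 16484 CPM in WT but 291 and 330 in ADPKD cells, with 22 of 22 lower. In these bulk samples fewer cells of a type and less RNA per cell cannot be told apart.

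No gene is named by the labels as altered. Pkd1 was at 68.4 and 63.8 CPM in the WT libraries and 73.6 and 70.3 CPM in the ADPKD libraries, and Pkd2 at 185 and 208 CPM in WT against 190.0 and 166 in ADPKD cells. Neither passed the test (edgeR adjusted p = 0.518 and 0.273), and neither level shows whether the gene carries a mutation.

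Gene classes differed in the balance of higher and lower members. Among 546 tested channels and transporters, 272 were lower (49.8%) and 117 higher (21.4%), with a median log2 fold change of -0.60. Secreted factors went the other way, with 168 of 399 higher (42.1%) and 110 lower (27.6%). Matrix, adhesion and cytoskeleton genes were higher in 171 of 413 cases (41.4%) and lower in 70 (16.9%). Receptors were higher in 148 of 385 (38.4%) and lower in 108 (28.1%), and transcription factors in 230 and 165 of 748 (30.7% and 22.1%). The lower shares of secreted factors and receptors and the higher share of transcription factors were near the background. Large shares of lower members were found in families of transporters and metabolic enzymes, and also among IRF and STAT factors (56.3%) and nuclear receptors (55.3%).

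**Figure D1:**
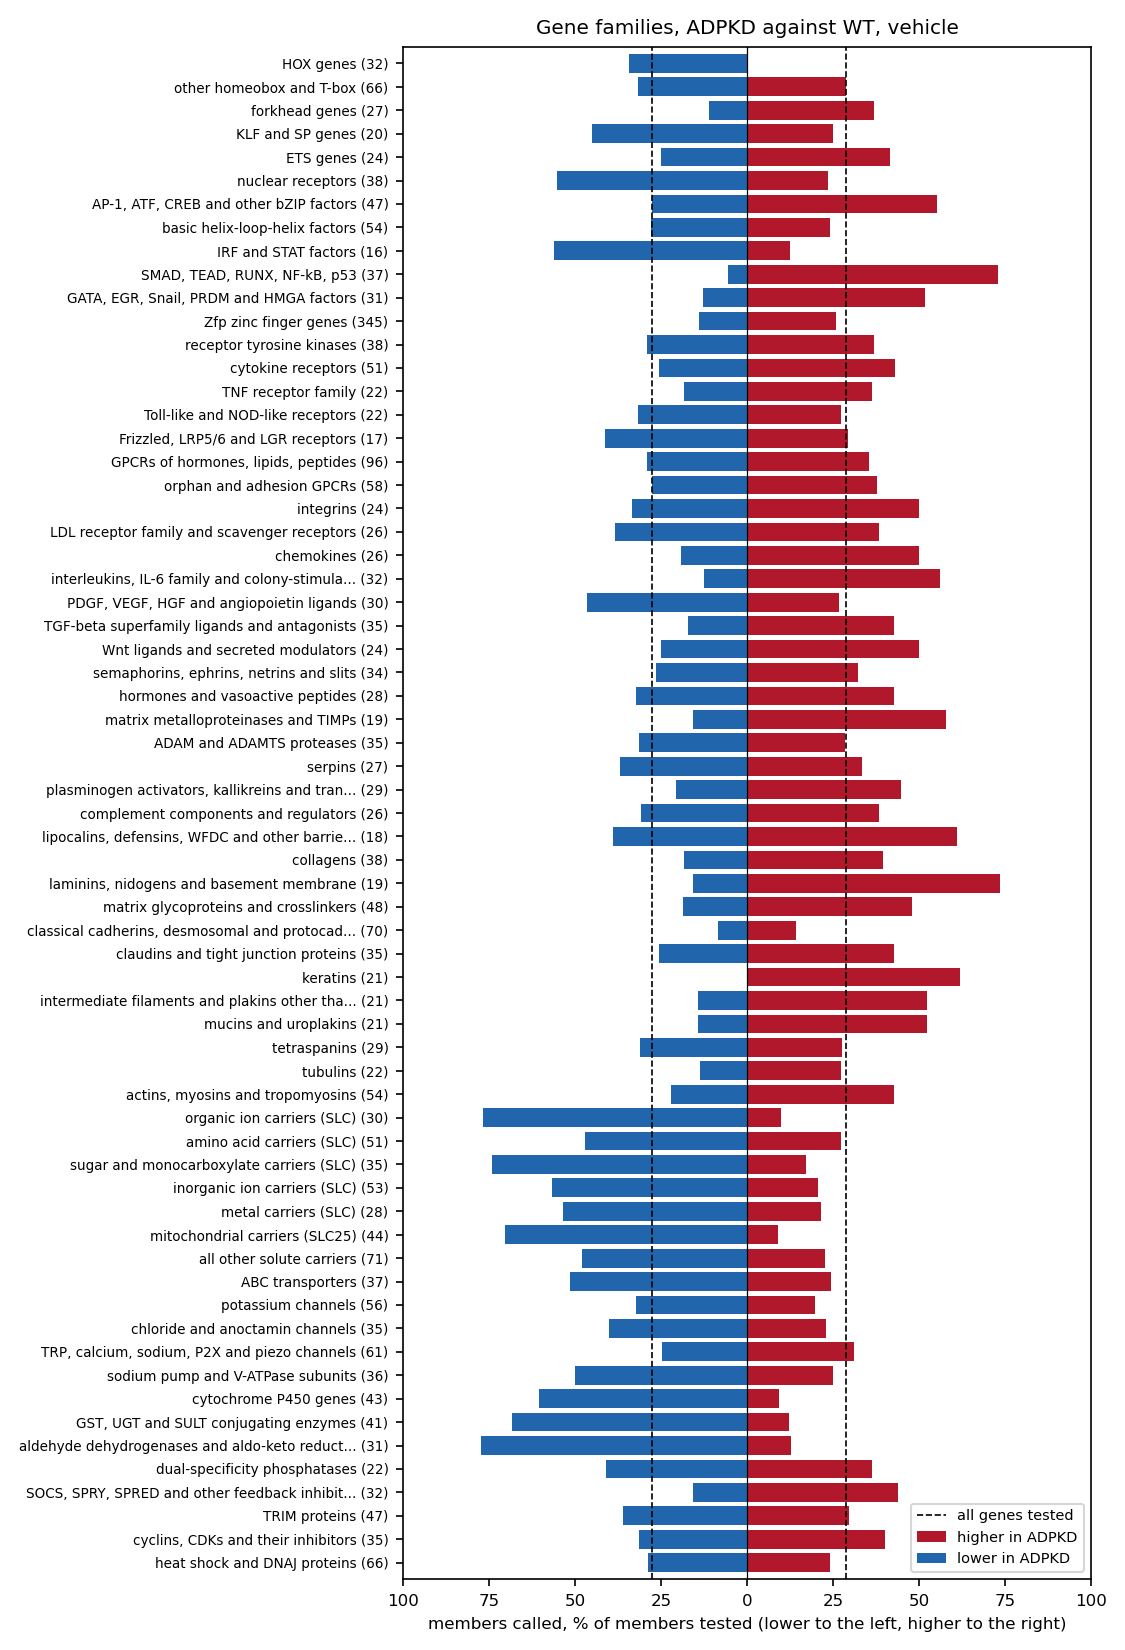
Share of tested members called higher (red, to the right) and lower (blue, to the left) in ADPKD than in WT cells, in percent, for most gene families with at least 15 tested members (number in parentheses). Dashed lines mark the shares among all genes tested, 28.8% higher and 27.6% lower. The blue bars of the solute carriers and of the cytochrome P450 genes reach far beyond the line, and the bars of keratins and of laminins and other basement membrane genes lie mostly to the right.

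Transcription factors went in both directions, and most families held higher and lower members. Hmga2 is a chromatin-bending protein of embryonic tissue that is silent in most adult cells (chromosome 10, 120361275 to 120476469, GRCm38). It was at 2.64 and 1.89 CPM in the WT libraries and 150.5 and 129 CPM in the ADPKD libraries. Both ADPKD libraries lay far above both WT libraries (log2 fold change 5.93 ± 0.18, edgeR adjusted p = 4.89e-11). Its relative Hmga1 was higher by 1.40 ± 0.10 on the log2 scale, although reads of close copies of that gene may be shared. Of 31 factors of the GATA, EGR, Snail, PRDM and HMGA families 16 were higher and 4 lower.

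Nuclear receptors were lower in 21 of 38 cases and higher in 9, with a median log2 fold change of -0.74. Esr1, the estrogen receptor alpha (chromosome 10, 4611593 to 5005614), stood against its family. It was at 10.5 and 6.2 CPM in the WT libraries and 389 and 365 CPM in the ADPKD libraries. The groups did not overlap, and the ADPKD libraries were nearly equal to each other (log2 fold change 5.48 ± 0.20, edgeR adjusted p = 2.04e-09). Hnf4a, which drives the proximal tubule programme, was at 177 and 188 CPM in the WT libraries and 1.82 and 3.15 CPM in the ADPKD libraries, a fall to traces in both ADPKD libraries (log2 fold change -6.20 ± 0.22, edgeR adjusted p = 8.69e-10). Vdr, the vitamin D receptor, fell by 2.15 ± 0.16 on the log2 scale and Esrra, a regulator of mitochondrial genes, fell by 1.68 ± 0.13. Rarg and Rara, receptors of retinoic acid, were higher by 1.83 ± 0.14 and 1.21 ± 0.14 on the log2 scale, and Nr4a1, an immediate early gene, by 1.42 ± 0.18. The proximal tubule markers given above moved with Hnf4a, and their part in its fall was not tested.

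Homeobox and related factors split. Osr2, a zinc finger factor of kidney development, fell by 3.62 ± 0.25 on the log2 scale and Emx1, a marker of the distal convoluted tubule, fell by 2.81 ± 0.26. Upward went Tfap2a, a factor of ectoderm, which was at 14.4 and 19.4 CPM in the WT libraries and 113 and 85.1 CPM in the ADPKD libraries, with no overlap (log2 fold change 2.56 ± 0.17, edgeR adjusted p = 1.42e-07). Dlx3, which acts in skin, was higher by 2.99 ± 0.35 on the log2 scale, and Pou2f3, a factor of tuft cells, was at 0.398 and 0.413 CPM in WT against 4.36 and 3.69 in ADPKD cells (log2 fold change 3.29 ± 0.46). Of 66 factors in this group 19 were higher and 21 lower, close to the background. The number of higher factors was 10 where genes had to reach 5 CPM in 2 libraries.

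HOX genes, which record position along the body axis, were in no case called higher: 0 of 32 tested were higher and 11 lower, with a median log2 fold change of -0.68. Without WT replicate 2 the number higher was 1. At an unadjusted p below 0.05 in edgeR, and in DESeq2, 0 were higher, and the same held for each later count of 0 called among keratins, neutrophil markers and ribosomal protein pseudogenes. Hoxd8 was at 74 and 79.2 CPM in the WT libraries and 35 and 32.1 CPM in the ADPKD libraries, lower in both ADPKD libraries (log2 fold change -1.19 ± 0.13, edgeR adjusted p = 4.14e-06). Hoxb9 was at 54.5 and 60.2 CPM in WT against 60.6 and 70.2 in ADPKD cells and did not pass (edgeR adjusted p = 0.185). None of the 32 was called with a difference of at least 4-fold.

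SMAD, TEAD, RUNX, NF-kB, NFAT and p53 family factors, which carry growth factor, stretch and inflammatory signals into the nucleus, were higher in 27 of 37 cases (73.0%) and lower in 2, with a median of 0.74. Runx1, a factor of blood and injured epithelium (chromosome 16, 92601466 to 92826149), was at 48.7 and 48.4 CPM in the WT libraries and 278 and 268 CPM in the ADPKD libraries. Its partner Cbfb was at 32.8 and 33.3 CPM in WT against 96.4 and 115 in ADPKD cells. Both rose without overlap (Runx1 log2 fold change 2.49 ± 0.15, edgeR adjusted p = 4.85e-08; Cbfb 1.68 ± 0.11). Tcf7, a nuclear partner of beta-catenin, was higher by 3.31 ± 0.25 on the log2 scale, Nfkb1, a subunit of NF-kB, by 1.53 ± 0.11, and Nfat5, the factor that responds to salt stress in the renal medulla, by 0.95 ± 0.12. The lower count was 0 without WT replicate 1 or with the 5 CPM filter, and 1 without WT replicate 2, without ADPKD replicate 1 or in DESeq2.

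IRF and STAT factors, which transmit interferon and cytokine signals, were lower in 9 of 16 cases and higher in 2 (median -0.89). Stat5a, which acts below the prolactin and growth hormone receptors, was at 60.7 and 53.6 CPM in the WT libraries and 11.9 and 10.6 CPM in the ADPKD libraries, with both WT libraries well above both ADPKD libraries (log2 fold change -2.35 ± 0.16, edgeR adjusted p = 5.5e-08). Stat2 fell by 1.83 ± 0.17 on the log2 scale and Irf1 fell by 1.44 ± 0.12. Stat3, which acts below IL-6 and LIF, fell by 0.55 ± 0.09 on the log2 scale. Irf5, a factor of myeloid cells, was higher by 2.12 ± 0.26 on the log2 scale, beside the macrophage markers that are given with the chemokines.

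The bZIP family, which includes CREB and AP-1, was higher in 26 of 47 cases (55.3%) and lower in 13. Creb1, the gene of the factor that 666-15 targets, was at 41.6 and 44.7 CPM in the WT libraries and 78.6 and 69.3 CPM in the ADPKD libraries (log2 fold change 0.78 ± 0.11, edgeR adjusted p = 7.38e-05). Creb3l1, a membrane-bound relative released by proteolysis, was higher too. It was at 8.96 and 9.86 CPM in the WT libraries and 54.8 and 47 CPM in the ADPKD libraries, without overlap (log2 fold change 2.44 ± 0.15, edgeR adjusted p = 3.23e-08). Junb was higher by 0.84 ± 0.11 on the log2 scale, Fosb by 0.70 ± 0.14, Cebpb, an inflammatory factor, by 1.12 ± 0.11 and Mafk by 0.85 ± 0.09, whereas Fos was at 450.3 and 526 CPM in WT against 241 and 214 in ADPKD cells and thus lower (log2 fold change -1.10 ± 0.10). Members of the PAR subfamily, which follow the circadian clock, were lower: Hlf was at 40.4 and 40.9 CPM in WT against 1.45 and 3.09 in ADPKD cells (log2 fold change -4.16 ± 0.32) and Tef at 147 and 122 CPM in WT against 31.5 and 35.7 in ADPKD cells. Maf, a factor of mature tubule cells, fell by 3.07 ± 0.17 on the log2 scale. Genes induced by tissue dissociation overlap this family: of 22 on that list 11 were higher and 2 lower, and they summed to 9810 and 10867 CPM in WT against 13325 and 12450 in ADPKD cells. Their part in the bZIP values was not tested.

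Sox9, a factor of nephron progenitors and of regenerating tubules, was at 58.3 and 67 CPM in the WT libraries and 391 and 307 CPM in the ADPKD libraries, and Sox4 at 200.5 and 234 CPM in WT against 427 and 517 in ADPKD cells. Both were higher in both ADPKD libraries (log2 fold change 2.48 ± 0.13 and 1.12 ± 0.13). Sox6 fell by 0.88 ± 0.17 on the log2 scale. Forkhead genes were higher in 10 of 27 cases and lower in 3, and 6 were higher without WT replicate 2. Foxa1, a pioneer factor of endoderm and urothelium, was at 2.79 and 1.59 CPM in WT against 12 and 9.61 in ADPKD cells (log2 fold change 2.28 ± 0.31). Foxn1, known from thymus and hair epithelium, was at 0.0498 and 0.295 CPM in the WT libraries and 5.03 and 9.39 CPM in the ADPKD libraries (log2 fold change 5.40 ± 0.56). Foxc1, which acts in podocytes and mesenchyme, fell by 1.40 ± 0.19 on the log2 scale, and Foxi1, the master factor of intercalated cells, fell by 1.22 ± 0.22. Intercalated cell markers were lower in 14 of 17 cases and higher in 1, with sums of 2851 and 2946 CPM in WT against 910 and 1014 in ADPKD cells and none at 0 in both libraries of a group. Their part in the value of Foxi1 was not tested.

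KLF and SP factors were lower in 9 of 20 cases and higher in 5. Klf15, a glucocorticoid-induced factor of podocytes and tubules, was at 15.1 and 13.4 CPM in WT against 2.8 and 1.63 in ADPKD cells (log2 fold change -2.68 ± 0.29), while Klf4 was at 103 and 105 CPM in WT against 362 and 323 in ADPKD cells (log2 fold change 1.72 ± 0.10) and Klf5, a factor of collecting duct cells, was higher by 0.78 ± 0.11 on the log2 scale. Of 24 ETS factors 10 were higher and 6 lower. The epithelial members Elf3 and Elf4 rose by 1.28 ± 0.12 and 2.29 ± 0.12 on the log2 scale, and Elk3 by 1.89 ± 0.13. Erg, an endothelial member, fell by 0.83 ± 0.20 on the log2 scale, beside endothelial markers of which 1 of 18 was higher and 5 lower (sums 2263 and 1965 CPM in WT, 1560 and 1923 in ADPKD cells). Among basic helix-loop-helix factors Mxd1, an antagonist of MYC, was at 62.9 and 55.2 CPM in WT against 325 and 250.3 in ADPKD cells (log2 fold change 2.28 ± 0.16), and Myc itself at 201 and 231 CPM in WT against 323 and 307 in ADPKD cells (log2 fold change 0.54 ± 0.10). Bhlhe40 was higher by 1.44 ± 0.10 on the log2 scale. Mlxipl, the carbohydrate-response factor ChREBP, was at 95.6 and 86.4 CPM in the WT libraries and 3.53 and 2.71 CPM in the ADPKD libraries, and Id2, an inhibitor of differentiation, fell by 1.65 ± 0.09 on the log2 scale. Hif1a did not pass (edgeR adjusted p = 0.459).

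**Figure D2:**
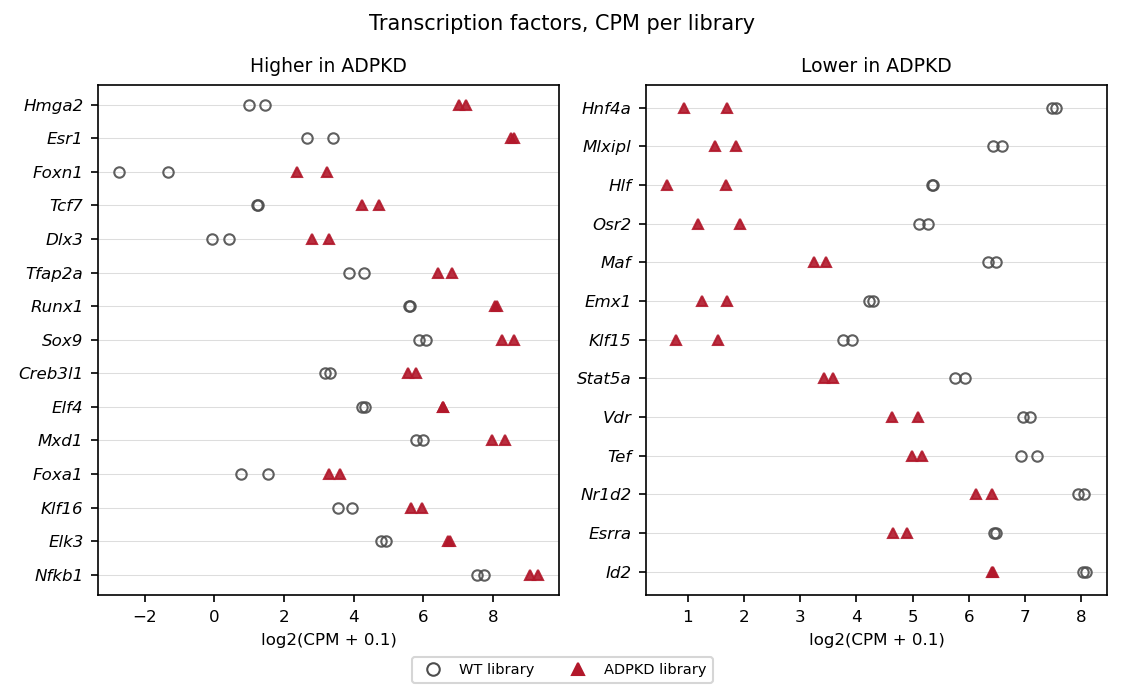
Level of 28 transcription factor genes in each vehicle library, as log2 of CPM plus 0.1 on the horizontal axis; open circles are the 2 WT and red triangles the 2 ADPKD libraries. In the left panel the triangles lie to the right of the circles for every gene drawn, and in the right panel to the left, with the widest gaps at Hmga2, Esr1 and Hnf4a.

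Since the other mice of the study received a CREB inhibitor, promoters were searched for the palindrome that CREB binds. The following genes of the comparison carry it within 250 bases before a start, and their promoters are shown because they include members that rose and members that fell. They were picked after their values were seen. Each sequence is a stretch of 100 bases within those 250, by a start of the gene in the RefSeq annotation of mouse GRCm38.p6, read 5′ to 3′ on the strand of the gene, and the capitals mark TGACGTCA. Abcg2 has 3 starts among the promoters searched and Cldn7 has 2, and the first one listed with a match is shown.
Areg (GRCm38.p6 chr5:91139488-91139587, strand +): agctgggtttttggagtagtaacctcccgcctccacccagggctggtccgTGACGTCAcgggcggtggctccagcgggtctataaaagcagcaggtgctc
Cldn7 (GRCm38.p6 chr11:69965321-69965420, strand +): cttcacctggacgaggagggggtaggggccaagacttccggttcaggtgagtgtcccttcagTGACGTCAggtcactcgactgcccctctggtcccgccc
Epha2 (GRCm38.p6 chr4:141301121-141301220, strand +): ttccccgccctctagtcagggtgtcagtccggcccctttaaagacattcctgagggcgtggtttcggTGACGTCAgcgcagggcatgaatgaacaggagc
Cdkn2b (GRCm38.p6 chr4:89311033-89311132, strand -): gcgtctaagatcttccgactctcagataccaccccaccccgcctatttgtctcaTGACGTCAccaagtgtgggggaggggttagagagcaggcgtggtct
Dio2 (GRCm38.p6 chr12:90739084-90739183, strand -): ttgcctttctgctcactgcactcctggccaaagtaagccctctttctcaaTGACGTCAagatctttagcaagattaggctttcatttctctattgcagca
Abcg2 (GRCm38.p6 chr6:58640446-58640545, strand +): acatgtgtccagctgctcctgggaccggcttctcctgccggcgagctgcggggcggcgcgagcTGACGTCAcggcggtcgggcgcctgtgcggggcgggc
Hlf (GRCm38.p6 chr11:90390918-90391017, strand -): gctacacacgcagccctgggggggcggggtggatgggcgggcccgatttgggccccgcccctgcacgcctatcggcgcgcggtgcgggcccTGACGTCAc

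Of these, Areg, the EGF receptor ligand amphiregulin, was at 2.64 and 1.65 CPM in the WT libraries and 22.5 and 36 CPM in the ADPKD libraries. Cldn7, a claudin of distal tubules, was at 179 and 193 CPM in WT against 587 and 596 in ADPKD cells. Epha2, an ephrin receptor kinase, was at 261 and 266 CPM in WT against 1009 and 986 in ADPKD cells, and Cdkn2b, the cell cycle inhibitor p15, at 7.82 and 9.39 CPM in WT against 28.8 and 27.4 in ADPKD cells. Dio2, which activates thyroid hormone, was at 0.448 and 0.473 CPM in WT against 11.7 and 45.4 in ADPKD cells, the ADPKD libraries being far apart from each other and still above WT. All 5 were higher without overlap (log2 fold change 3.75 ± 0.28, 1.67 ± 0.12, 1.92 ± 0.09, 1.71 ± 0.16 and 5.93 ± 0.78). Abcg2, a drug and urate exporter of the proximal tubule, was at 251 and 266 CPM in WT against 32.5 and 37.2 in ADPKD cells, and Hlf was lower as given above (log2 fold change -2.89 ± 0.12 and -4.16 ± 0.32).

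The motif was counted over all promoters as well. TGACGTCA, which reads the same on both strands, lay in the stretch from 250 bases before to 50 after the start of 3.05% of 3605 higher genes with a promoter in the table, 2.87% of 3658 lower genes and 3.82% of 4793 genes not called. It lay in 3.30% of 12056 tested genes and in 2.03% of all 27025 genes with a promoter. A gene counted if any of its starts matched, so genes with more starts had more chances to match. The AP-1 motif TGANTCA, searched on both strands, was present in 8.13% of higher, 6.83% of lower and 6.45% of genes not called, and the TEAD motif GGAATG in 14.8%, 15.7% and 14.8%. These are matches of letters in a short window and carry no test.

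Most receptor families held higher and lower members. Of 51 cytokine receptor genes 22 were higher and 13 lower. Il18r1, the IL-18 receptor (chromosome 1, 40465552 to 40500854), was at 3.59 and 2.89 CPM in the WT libraries and 91.5 and 80.7 CPM in the ADPKD libraries, with a wide gap between the groups (log2 fold change 4.72 ± 0.19, edgeR adjusted p = 9.37e-10). Prlr, the prolactin receptor (chromosome 15, 10177238 to 10349180), had the opposite course, at 186 and 125 CPM in the WT libraries and 0.156 and 0.706 CPM in the ADPKD libraries. Its level in ADPKD cells was a trace (log2 fold change -8.49 ± 0.37, edgeR adjusted p = 6.97e-08). Ghr, the growth hormone receptor, fell by 2.21 ± 0.13 on the log2 scale, Lifr, the receptor of LIF, fell by 2.55 ± 0.13 and Il15ra fell by 2.99 ± 0.26. Osmr, the oncostatin M receptor, was at 116 and 106 CPM in WT against 103 and 102 in ADPKD cells and did not pass (edgeR adjusted p = 0.425).

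Receptor tyrosine kinases were mixed, with 14 of 38 higher and 11 lower. Fgfr1 was at 161 and 178 CPM in the WT libraries and 461 and 422 CPM in the ADPKD libraries, while Fgfr3 and Fgfr4 were lower (log2 fold change 1.38 ± 0.10 against -1.41 ± 0.18 and -3.55 ± 0.27). Erbb2, the co-receptor of the EGF receptor family, was higher by 1.05 ± 0.11 on the log2 scale, Ptk7, a receptor of planar polarity signalling, by 2.70 ± 0.13 and Mst1r by 2.92 ± 0.37. Insrr, an alkali sensor of intercalated cells, was at 53.3 and 54.5 CPM in WT against 1.56 and 2.12 in ADPKD cells (log2 fold change -4.87 ± 0.33). Met, the hepatocyte growth factor receptor, was at 463 and 461 CPM in WT against 471 and 524 in ADPKD cells and did not pass (edgeR adjusted p = 0.387).

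Eph receptors, which read ephrins on neighbouring cells, were higher in 6 of 11 cases and lower in 4, or 2 without WT replicate 1 and 0 with the 5 CPM filter. Summed over the family, CPM were 424 and 435 in WT and 2042 and 1902 in ADPKD cells. Ephb2 was at 41.7 and 41.5 CPM in the WT libraries and 729.8 and 634 CPM in the ADPKD libraries and Ephb3 at 27.4 and 28.7 CPM in WT against 165 and 150.1 in ADPKD cells, with wide gaps between the groups (Ephb2 log2 fold change 4.03 ± 0.11, edgeR adjusted p = 2.48e-11; Ephb3 2.49 ± 0.11). Their ligand Efnb1 was higher too, at 37.8 and 34.4 CPM in WT against 345 and 295 in ADPKD cells (log2 fold change 3.15 ± 0.17).

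Notch2 and Notch1 were higher by 1.18 ± 0.10 and 1.05 ± 0.11 on the log2 scale, and their ligand Jag1 by 1.10 ± 0.10. Frizzled and related Wnt receptors were higher in 5 of 17 cases (1 to 3 without any 1 vehicle library, 2 in DESeq2 or with the 5 CPM filter) and lower in 7 (4 without ADPKD replicate 1). The Wnt receptors Fzd4 and Lgr4 were lower (log2 fold change -1.21 ± 0.10 and -1.07 ± 0.14) and Fzd1 was higher (log2 fold change 1.67 ± 0.15). Smo and Ptch1, signal transducer and receptor of the hedgehog pathway, were lower (log2 fold change -1.14 ± 0.15 and -0.71 ± 0.14). Tgfbr1 was at 76.2 and 83.2 CPM in WT against 229 and 252 in ADPKD cells (log2 fold change 1.59 ± 0.10). Among TNF receptors, of which 8 of 22 were higher and 4 lower, Tnfrsf1b was at 12.1 and 11.3 CPM in the WT libraries and 128 and 122 CPM in the ADPKD libraries (log2 fold change 3.42 ± 0.12), whereas Tnfrsf1a, the other receptor of TNF, was at 178 and 168 CPM in WT against 153 and 169.8 in ADPKD cells and did not pass (edgeR adjusted p = 0.456). Tnfrsf12a, the receptor of TWEAK, was higher by 0.97 ± 0.10 on the log2 scale, and the death receptor Fas fell by 2.57 ± 0.28. With the 5 CPM filter 2 TNF receptors were lower. Toll-like and NOD-like receptors were higher in 6 of 22 cases (2 with the 5 CPM filter and 3 without ADPKD replicate 2) and lower in 7. Tlr2 was higher by 1.80 ± 0.15 on the log2 scale, Tlr3 was lower (log2 fold change -2.29 ± 0.26), and Nlrp6 was at 47.4 and 44.2 CPM in WT against 0.778 and 0.434 in ADPKD cells (log2 fold change -6.21 ± 0.43).

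G protein-coupled receptors for hormones and lipids were higher in 34 of 96 cases and lower in 28, and 14 were higher with the 5 CPM filter. Pth1r, the parathyroid hormone receptor, was at 256 and 303 CPM in the WT libraries and 17 and 19.1 CPM in the ADPKD libraries (log2 fold change -3.95 ± 0.13, edgeR adjusted p = 1.19e-10), and Gcgr, the glucagon receptor, at 32.7 and 30.7 CPM in WT against 1.92 and 1.85 in ADPKD cells (log2 fold change -4.07 ± 0.20). Lpar3, a lysophosphatidic acid receptor, was at 40.6 and 34.7 CPM in WT against 0.311 and 0.163 in ADPKD cells (log2 fold change -7.26 ± 0.34), and Ptgfr, the prostaglandin F receptor, fell by 4.90 ± 0.26 on the log2 scale. Ptger4, a prostaglandin E2 receptor that raises cyclic AMP, was higher, at 27 and 34.2 CPM in the WT libraries and 88.5 and 96.6 CPM in the ADPKD libraries (log2 fold change 1.60 ± 0.13, edgeR adjusted p = 2.45e-07). F2rl1, a protease-activated receptor, rose by 1.03 ± 0.10 on the log2 scale. Of the orphan receptors, Gprc5a, induced by retinoic acid, was at 326 and 273 CPM in WT against 1816 and 1517 in ADPKD cells, and Adgrg1, an adhesion receptor, at 724 and 879 CPM in WT against 2272 and 2032 in ADPKD cells (log2 fold change 2.47 ± 0.15 and 1.42 ± 0.11).

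Integrins, the receptors for matrix, were higher in 12 of 24 cases and lower in 8, or 5 without ADPKD replicate 1. Itgb4, which anchors epithelium to laminin in hemidesmosomes (chromosome 11, 115974709 to 116008412), was at 36.6 and 35.2 CPM in the WT libraries and 806 and 653 CPM in the ADPKD libraries (log2 fold change 4.34 ± 0.13, edgeR adjusted p = 4.63e-11). Itga2, a collagen receptor, was at 22.5 and 16.7 CPM in WT against 307 and 315 in ADPKD cells, and Itga5, the fibronectin receptor subunit, at 105 and 103 CPM in WT against 359.6 and 332 in ADPKD cells (log2 fold change 3.98 ± 0.15 and 1.73 ± 0.13). Itgb8, which activates latent TGF-beta, was at 130.1 and 152 CPM in WT against 6.69 and 6.3 in ADPKD cells (log2 fold change -4.44 ± 0.20), and Itga8, an integrin of mesangial and mural cells, fell by 3.16 ± 0.17 on the log2 scale. Itga6, the partner of Itgb4, fell by 0.49 ± 0.11 on the log2 scale. LDL receptor family and scavenger receptors were higher in 10 of 26 cases and lower in 10. Lrp2, the endocytic receptor megalin, was at 1415 and 1425 CPM in WT against 11.9 and 8.36 in ADPKD cells (log2 fold change -7.13 ± 0.26). Lrp2 belongs to the proximal tubule list given above, of which 22 of 22 were lower. The part of those cells in the lower receptor values, here and above, was not tested. Lrp8, an apolipoprotein E and reelin receptor, was at 18.3 and 18.3 CPM in WT against 143 and 113 in ADPKD cells (log2 fold change 2.81 ± 0.15).

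Secreted factors included some of the largest differences of the table. Vgf, a precursor of secreted neuropeptides (chromosome 5, 137026392 to 137033351), was at 4.33 and 5.08 CPM in the WT libraries and 377 and 327 CPM in the ADPKD libraries. The WT libraries were alike, as were the ADPKD libraries (log2 fold change 6.23 ± 0.15, edgeR adjusted p = 2.21e-11). Ltbp2, which binds to microfibrils and resembles the latent TGF-beta carriers, was at 0.697 and 1.3 CPM in the WT libraries and 50.7 and 53.4 CPM in the ADPKD libraries (log2 fold change 5.72 ± 0.26, edgeR adjusted p = 1.55e-09). Of 35 TGF-beta superfamily ligands and antagonists 15 were higher and 6 lower. Gdf15, a stress hormone, was at 232 and 238 CPM in WT against 1137 and 1619.5 in ADPKD cells, Tgfb2 rose by 1.95 ± 0.14 on the log2 scale, Bmp1, the procollagen C-proteinase, by 2.35 ± 0.18, and Nbl1, a BMP antagonist, by 2.90 ± 0.20. Bmp7, a factor that maintains tubule cells, and Bmp6 were lower (log2 fold change -1.17 ± 0.22 and -2.39 ± 0.19), as was the antagonist Sostdc1 (log2 fold change -3.05 ± 0.17).

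EGF receptor ligands went in both directions. Ereg, Areg, Tgfa and Hbegf were higher (log2 fold change 5.52 ± 0.61, 3.75 ± 0.28, 2.30 ± 0.11 and 1.26 ± 0.09), with Hbegf at 543 and 573 CPM in the WT libraries and 1333 and 1342 CPM in the ADPKD libraries. Summed over the family, CPM were lower in ADPKD cells, 1556 and 1603 against 3125 and 2900 in WT cells, a sum that includes Egf, a product of the thick ascending limb, at 2426 and 2161 CPM in WT against 4.46 and 3.58 in ADPKD cells. Of 9 ligands 4 were higher and 2 lower, or 1 lower without WT replicate 2 or ADPKD replicate 1.

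Vegfa was at 403 and 374 CPM in the WT libraries and 960.4 and 842 CPM in the ADPKD libraries, and Pdgfb at 131 and 137 CPM in WT against 918 and 801 in ADPKD cells (log2 fold change 1.21 ± 0.11 and 2.68 ± 0.12). Artn, a neurotrophic ligand of the GDNF family, rose by 2.64 ± 0.18 on the log2 scale. Fgf1 and Fgf9 were lower (log2 fold change -2.31 ± 0.18 and -1.63 ± 0.20), as were the heparin-binding factors Ptn and Mdk (log2 fold change -2.82 ± 0.18 and -2.49 ± 0.25) and Gas6 (log2 fold change -1.85 ± 0.11). In the family of PDGF, VEGF, HGF and angiopoietin ligands, which includes the neurotrophic and heparin-binding factors but not the FGFs, 8 of 30 were higher and 14 lower.

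IGF-binding proteins hold insulin-like growth factors in the extracellular space. All 9 tested genes of this family, growth factors included, were called, 4 higher and 5 lower. The number higher was 2 without either WT library. Igfbp4 (chromosome 11, 99041244 to 99054392) was at 612 and 530.4 CPM in the WT libraries and 25.3 and 27.2 CPM in the ADPKD libraries (log2 fold change -4.44 ± 0.13, edgeR adjusted p = 3.44e-11), and Igfbp5 at 321 and 329 CPM in WT against 74.8 and 118 in ADPKD cells (log2 fold change -1.75 ± 0.24). Igfbp2 and Igfbp6 were higher, from low levels (log2 fold change 2.60 ± 0.23 and 3.49 ± 0.46).

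Wnt ligands and secreted modulators were higher in 12 of 24 cases, lower in 6 (3 with the 5 CPM filter) and had a median of 1.47. Wnt7b, a ligand of the collecting duct that patterns the medulla, was at 79.4 and 67.1 CPM in the WT libraries and 635 and 517 CPM in the ADPKD libraries (log2 fold change 2.97 ± 0.18, edgeR adjusted p = 1.82e-07). Wnt9b, the ligand by which the ureteric bud induces nephrons, was at 48 and 75 CPM in WT against 258 and 187 in ADPKD cells (log2 fold change 1.86 ± 0.32). Wnt9a and Wnt10b rose from low levels (log2 fold change 3.90 ± 0.20 and 6.11 ± 0.47). The secreted inhibitors Sfrp1 and Wif1 were lower: Sfrp1 was at 223 and 201 CPM in WT against 12.7 and 18.7 in ADPKD cells (log2 fold change -3.75 ± 0.32), and Wif1 was at 3.79 and 3.72 CPM in WT against 0.259 and 0.38 in ADPKD cells (log2 fold change -3.53 ± 0.60).

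Chemokines were higher in 13 of 26 cases, 11 of them at least 4-fold, and lower in 5, or 3 without WT replicate 2 or ADPKD replicate 2 and 2 with the 5 CPM filter. Cxcl2, which draws neutrophils, was at 28.8 and 29.6 CPM in the WT libraries and 281 and 441 CPM in the ADPKD libraries (log2 fold change 3.63 ± 0.30, edgeR adjusted p = 6.19e-05). Cxcl16 was at 134 and 162 CPM in WT against 531 and 686 in ADPKD cells (log2 fold change 2.04 ± 0.14), and Cxcl14, a chemokine of epithelium, at 0.349 and 0.354 CPM in WT against 22.4 and 42.8 in ADPKD cells (log2 fold change 6.51 ± 0.51). Cxcl12 fell by 2.34 ± 0.23 on the log2 scale, and Cxcl9, an interferon-induced chemokine, fell by 4.43 ± 0.72. With 1 vehicle library left out, the log2 fold change of Cxcl9 ran from -8.67 to -3.45. Ccl9 and Ccl6, made by myeloid cells, were higher (log2 fold change 4.22 ± 0.47 and 3.57 ± 0.44). Macrophage markers moved with these: 14 of 18 were higher and 1, Csf1r, was lower (log2 fold change -1.15 ± 0.21), the list summed to 178 and 160 CPM in WT against 432 and 515 in ADPKD cells, and none was at 0 in both libraries of a group. The neutrophil list had 4 tested markers with 0 called and sums of 2.09 to 4.83 CPM in all 4 libraries. The part of these cells in the chemokine values was not tested.

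Interleukins and colony-stimulating factors were higher in 18 of 32 cases, with a median of 1.46. Csf3, the granulocyte factor, was at 7.32 and 6.91 CPM in the WT libraries and 287 and 376 CPM in the ADPKD libraries (log2 fold change 5.54 ± 0.31, edgeR adjusted p = 4.45e-06), and Il1rn, the antagonist of IL-1, at 9.46 and 9.98 CPM in WT against 172 and 165 in ADPKD cells (log2 fold change 4.12 ± 0.12). Il23a was higher by 5.32 ± 0.36 on the log2 scale. Il15 fell by 3.31 ± 0.37 on the log2 scale, and Kitl, stem cell factor, was lower too, at 140.3 and 145 CPM in WT against 68.6 and 74.2 in ADPKD cells. The number lower was 4, and 2 with the 5 CPM filter.

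Complement genes were higher in 10 of 26 cases and lower in 8. Clu, clusterin, was at 893 and 890.1 CPM in the WT libraries and 4019.9 and 6201 CPM in the ADPKD libraries (log2 fold change 2.52 ± 0.19, edgeR adjusted p = 2.76e-06). Cfb, which drives the alternative pathway, fell by 4.33 ± 0.38 on the log2 scale. C1qa was higher by 5.32 ± 0.46 on the log2 scale, a macrophage marker itself. Lcn2, the iron-sequestering lipocalin that marks tubule injury, was at 68.4 and 72.2 CPM in the WT libraries and 1644 and 1931 CPM in the ADPKD libraries (log2 fold change 4.67 ± 0.29, edgeR adjusted p = 9.91e-06). Wfdc2 was at 180.0 and 169 CPM in WT against 1119.8 and 950.0 in ADPKD cells and Slpi, a protease inhibitor, at 1.84 and 1.71 CPM in WT against 25.6 and 43.9 in ADPKD cells (log2 fold change 2.57 ± 0.13 and 4.28 ± 0.38), whereas the defensin Defb1 was at 681 and 709 CPM in WT against 100.3 and 88.4 in ADPKD cells (log2 fold change -2.88 ± 0.11). All 18 tested barrier genes were called, 11 higher and 7 lower. With the 5 CPM filter 5 were higher and 3 lower.

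Among proteases and their inhibitors, metalloproteinases and TIMPs were higher in 11 of 19 cases and lower in 3. Mmp14 was at 47.1 and 55.1 CPM in WT against 254 and 272 in ADPKD cells, Mmp19 at 0.548 and 1.12 CPM in WT against 50.7 and 88.3 in ADPKD cells and Timp1 at 4.43 and 2.66 CPM in WT against 56.9 and 85.6 in ADPKD cells (log2 fold change 2.37 ± 0.15, 6.40 ± 0.42 and 4.31 ± 0.27). Timp3, which binds to matrix, was at 1100.2 and 1139 CPM in WT against 501 and 576 in ADPKD cells (log2 fold change -1.06 ± 0.10). Plasminogen activators, kallikreins and transmembrane serine proteases were higher in 13 of 29 cases and lower in 6. Plau, urokinase, and its receptor Plaur were higher (log2 fold change 1.11 ± 0.10 and 1.94 ± 0.12). F3, tissue factor, was at 1065 and 966 CPM in WT against 2942 and 3185 in ADPKD cells (log2 fold change 1.59 ± 0.10). Prss22, a trypsin-like protease of epithelium, was higher by 4.17 ± 0.13 on the log2 scale. Klk1, the tissue kallikrein of the connecting tubule, was at 983 and 738 CPM in WT against 61.7 and 99.1 in ADPKD cells (log2 fold change -3.42 ± 0.40), and Hpn, hepsin, which releases uromodulin, fell by 3.47 ± 0.14 on the log2 scale. Adam8 was at 3.09 and 4.9 CPM in WT against 148 and 199.8 in ADPKD cells (log2 fold change 5.46 ± 0.23).

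Hormones and vasoactive peptides were higher in 12 of 28 cases and lower in 9. Agt, angiotensinogen, made by the proximal tubule, was at 93.3 and 54.2 CPM in the WT libraries and 2.54 and 2.88 CPM in the ADPKD libraries (log2 fold change -4.76 ± 0.41, edgeR adjusted p = 3.38e-05), and Apln, apelin, fell by 3.44 ± 0.41 on the log2 scale. Adm, adrenomedullin, was higher by 0.97 ± 0.12 on the log2 scale, and the natriuretic peptide genes Nppb and Nppc were at 0.299 and 0.886 CPM in WT against 9.86 and 18 in ADPKD cells and at 0.697 and 0.532 CPM in WT against 9.44 and 7.76 in ADPKD cells (log2 fold change 4.58 ± 0.45 and 3.78 ± 0.39). Penk, proenkephalin, rose by 4.36 ± 0.53 on the log2 scale.

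**Figure D3:**
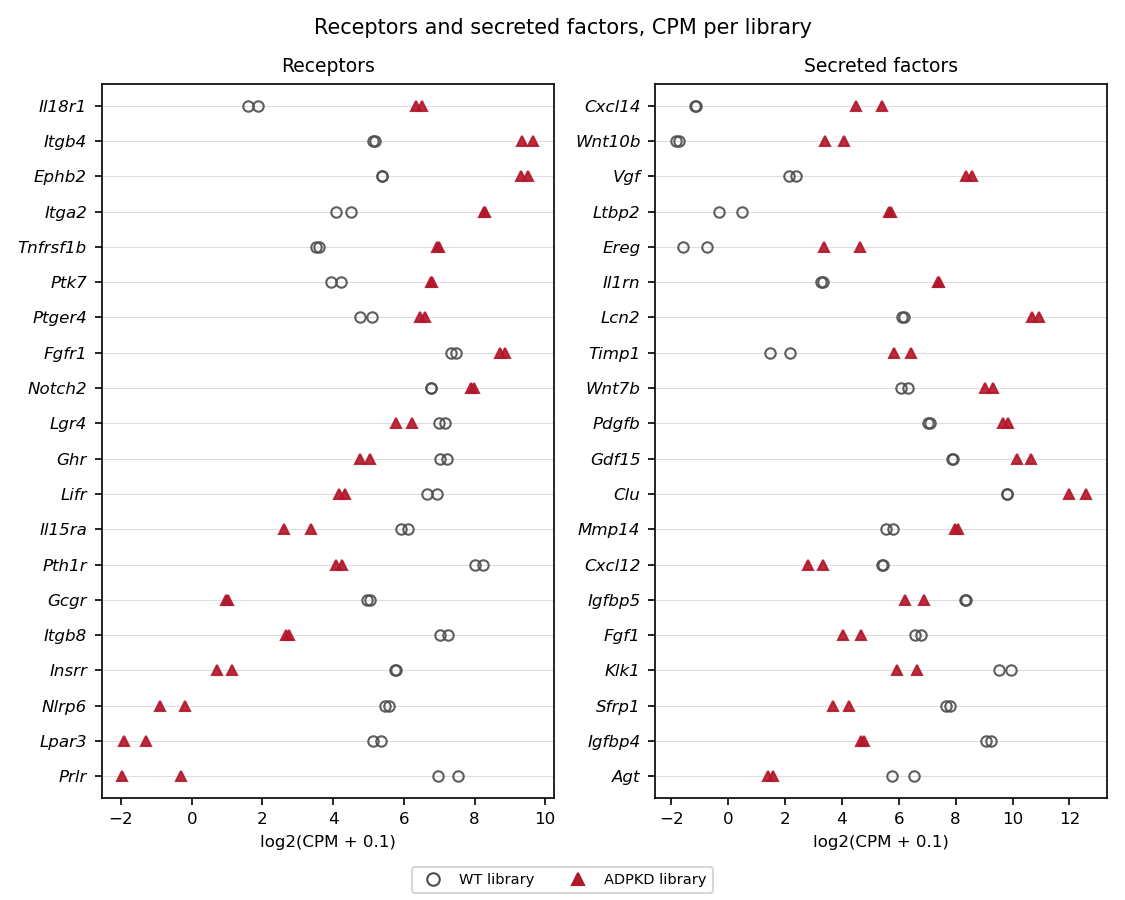
Level of 20 receptor genes (left) and 20 genes of secreted factors (right) in each vehicle library, as log2 of CPM plus 0.1; open circles are the 2 WT and red triangles the 2 ADPKD libraries. The upper genes of each panel are higher and the lower genes lower in ADPKD cells, with no overlap for any gene drawn; Il18r1 and Prlr mark the ends of the receptor panel.

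Basement membrane genes were higher in 14 of 19 cases (73.7%) and lower in 3. The laminin chains went in both directions. Lama3, a laminin alpha chain that binds the integrin of hemidesmosomes, was at 78.8 and 49 CPM in the WT libraries and 1634 and 1207 CPM in the ADPKD libraries (log2 fold change 4.47 ± 0.28, edgeR adjusted p = 7.89e-06). Lama5, an alpha chain of mature kidney epithelium, was at 858 and 929 CPM in the WT libraries and 2719.9 and 2337 CPM in the ADPKD libraries (log2 fold change 1.50 ± 0.13, edgeR adjusted p = 6.54e-07). Scaled by length, Lama3 was at 5.95 CPM per kb of exon in WT and 132 in ADPKD cells and Lama5 at 78.5 CPM per kb of exon in WT and 222 in ADPKD cells. Lama1, the alpha chain of the proximal tubule, fell by 3.06 ± 0.19 on the log2 scale and Lamc3 fell by 1.89 ± 0.36. The nidogens, which tie laminin to collagen IV, went apart: Nid1 was at 127 and 135 CPM in WT against 469 and 426 in ADPKD cells and Nid2 at 85.2 and 74.4 CPM in WT against 13.1 and 14.6 in ADPKD cells (log2 fold change 1.77 ± 0.15 and -2.53 ± 0.17). Hspg2, perlecan, was higher by 0.98 ± 0.11 on the log2 scale.

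Collagens were higher in 15 of 38 cases and lower in 7 (4 without WT replicate 1). The type IV chains of the glomerular and distal tubular basement membrane were lower together: Col4a3 was at 386 and 363 CPM in the WT libraries and 126 and 71.2 CPM in the ADPKD libraries, Col4a4 at 341 and 353 CPM in WT against 146 and 96.6 in ADPKD cells and Col4a5 at 167 and 175 CPM in WT against 48.2 and 48.9 in ADPKD cells (log2 fold change -1.93 ± 0.25, -1.51 ± 0.16 and -1.82 ± 0.10). Podocyte markers, a source of these chains, were lower in 8 of 10 cases and higher in 2, and summed to 789 and 764 CPM in WT against 289 and 269 in ADPKD cells. The fibrillar collagens Col1a1 and Col3a1 rose, with Col1a1 at 18.2 and 12.2 CPM in WT against 63.7 and 103 in ADPKD cells and Col3a1 at 23.4 and 12.9 CPM in WT against 77.6 and 107 in ADPKD cells (log2 fold change 2.45 ± 0.25 and 2.34 ± 0.27). Both belong to the list of stromal and mural cells, of which 8 of 17 were higher and 2 lower, with sums of 527 and 474 CPM in WT against 947 and 1003 in ADPKD cells and none at 0 in both libraries of a group. Of the stromal and mural sums, Cspg4 alone held 48.1 and 59.7 CPM in WT and 443 and 194 in ADPKD cells. Rgs5, of mural cells, was at 101 and 87.2 CPM in WT against 39.6 and 46.8 in ADPKD cells. The part of podocytes and stromal cells in the collagen values was not tested. Col7a1, the anchoring fibril collagen made by epithelium, was at 5.88 and 5.61 CPM in WT against 35.7 and 37.3 in ADPKD cells (log2 fold change 2.67 ± 0.27).

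Other matrix genes were higher in 23 of 48 cases and lower in 9. Lox, the collagen crosslinking oxidase, was at 14.1 and 9.98 CPM in WT against 60.5 and 87.9 in ADPKD cells, Thbs1, thrombospondin, at 525 and 499.6 CPM in WT against 1286 and 1643 in ADPKD cells and Spp1, osteopontin, at 3010.1 and 3297 CPM in WT against 5628 and 5592 in ADPKD cells (log2 fold change 2.62 ± 0.22, 1.51 ± 0.12 and 0.83 ± 0.10). Eln, elastin, was at 265 and 186 CPM in WT against 41.5 and 53.5 in ADPKD cells (log2 fold change -2.25 ± 0.24), and Tinag, a tubular basement membrane antigen, fell by 2.07 ± 0.16 on the log2 scale.

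Families of junction genes held higher and lower members. Claudins and tight junction proteins were higher in 15 of 35 cases and lower in 9. Cldn4, a claudin of the collecting duct, took more counts than any other gene of the ADPKD libraries, 1.18% and 1.19% (chromosome 5, 134945119 to 134946934). It was at 2401 and 2989.7 CPM in the WT libraries and 12107 and 12245 CPM in the ADPKD libraries (log2 fold change 2.18 ± 0.11, edgeR adjusted p = 5.31e-09). Cldn3 was at 30.1 and 42.4 CPM in WT against 357 and 402 in ADPKD cells (log2 fold change 3.39 ± 0.16). Cldn2, the leaky claudin of the proximal tubule, was at 324 and 318 CPM in the WT libraries and 4.25 and 4.23 CPM in the ADPKD libraries (log2 fold change -6.24 ± 0.17, edgeR adjusted p = 2.48e-11), and Cldn10, of the thick ascending limb, at 94.5 and 98.3 CPM in WT against 7.99 and 7.87 in ADPKD cells (log2 fold change -3.60 ± 0.18). Cldn8, of the distal nephron, fell by 1.37 ± 0.16 on the log2 scale. Markers of the proximal tubule were lower in 22 of 22 cases and those of the thick ascending limb in 9 of 11. The part of these segments in the claudin values was not tested. In the gap junction family 6 of 14 were higher and 3 lower. The connexins Gjb1 and Gjb2 were lower (log2 fold change -2.55 ± 0.22 and -2.24 ± 0.18).

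Cadherins shifted likewise. Cdh1, E-cadherin, was at 1019.6 and 1083 CPM in the WT libraries and 2169 and 2256 CPM in the ADPKD libraries, Cdh3, P-cadherin, at 10.3 and 12.4 CPM in WT against 45.6 and 45.2 in ADPKD cells and Cdh16, the kidney-specific cadherin, at 1510.1 and 1596 CPM in WT against 819.8 and 664 in ADPKD cells (log2 fold change 1.07 ± 0.09, 2.00 ± 0.13 and -1.07 ± 0.11). Cdh2, N-cadherin of the proximal tubule, fell by 3.31 ± 0.37 on the log2 scale, and the part of proximal tubule cells in this value was not tested. Most of the 70 genes of this family, largely protocadherins, were not called, with 10 higher and 6 lower (13 lower without ADPKD replicate 2). The desmosomal and plakin genes Dsc2, Pkp3, Jup and Ppl were higher (log2 fold change 1.61 ± 0.15, 1.77 ± 0.12, 1.60 ± 0.11 and 1.68 ± 0.11).

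Keratins were higher in 13 of 21 cases and lower in 0, with 3 lower without WT replicate 2 and 1 lower without ADPKD replicate 2, without the filter or with the 2 groups alone. Krt8 was at 1698 and 1637 CPM in the WT libraries and 5322 and 5218 CPM in the ADPKD libraries and Krt7 at 193 and 230.1 CPM in WT against 1491 and 1453 in ADPKD cells (log2 fold change 1.66 ± 0.10 and 2.80 ± 0.11). Krt20, of urothelium, was at 209.6 and 173 CPM in WT against 168 and 129 in ADPKD cells and did not pass (edgeR adjusted p = 0.32), but it passed with the 2 groups alone. Urothelial markers were higher in 3 of 9 tested cases and lower in 1, with sums of 236 and 187 CPM in WT against 222 and 164 in ADPKD cells. Annexins, which bind membranes in the presence of calcium, were higher in 8 of 11 cases: Anxa1 was at 157 and 188 CPM in WT against 1121 and 1407 in ADPKD cells and Anxa2 at 393 and 366 CPM in WT against 1161 and 953 in ADPKD cells (log2 fold change 2.87 ± 0.16 and 1.48 ± 0.13). The calcium-binding S100a6 was at 65.8 and 41.5 CPM in the WT libraries and 951 and 720.4 CPM in the ADPKD libraries (log2 fold change 3.96 ± 0.28, edgeR adjusted p = 1.72e-05), and S100a14 and S100a11 rose by 2.88 ± 0.24 and 1.24 ± 0.12 on the log2 scale. Of 12 S100 genes 8 were higher and 2 lower, and the number lower was 0 or 1 without any 1 vehicle library.

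Genes of contractile filaments were higher in 23 of 54 cases and lower in 12. Actb and Myh9 were higher by 0.77 ± 0.09 and 0.74 ± 0.09 on the log2 scale, and Actn1, an actin crosslinker of adhesions, was at 195 and 236 CPM in WT against 634 and 817 in ADPKD cells (log2 fold change 1.75 ± 0.13). Lmna, lamin A, was at 719 and 816 CPM in WT against 2193 and 1636 in ADPKD cells (log2 fold change 1.32 ± 0.16). Myo7b, a myosin of the brush border, was at 64.6 and 74.4 CPM in WT against 1.19 and 1.47 in ADPKD cells (log2 fold change -5.70 ± 0.22), and Myh11, of smooth muscle, fell by 2.60 ± 0.24 on the log2 scale.

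**Figure D4:**
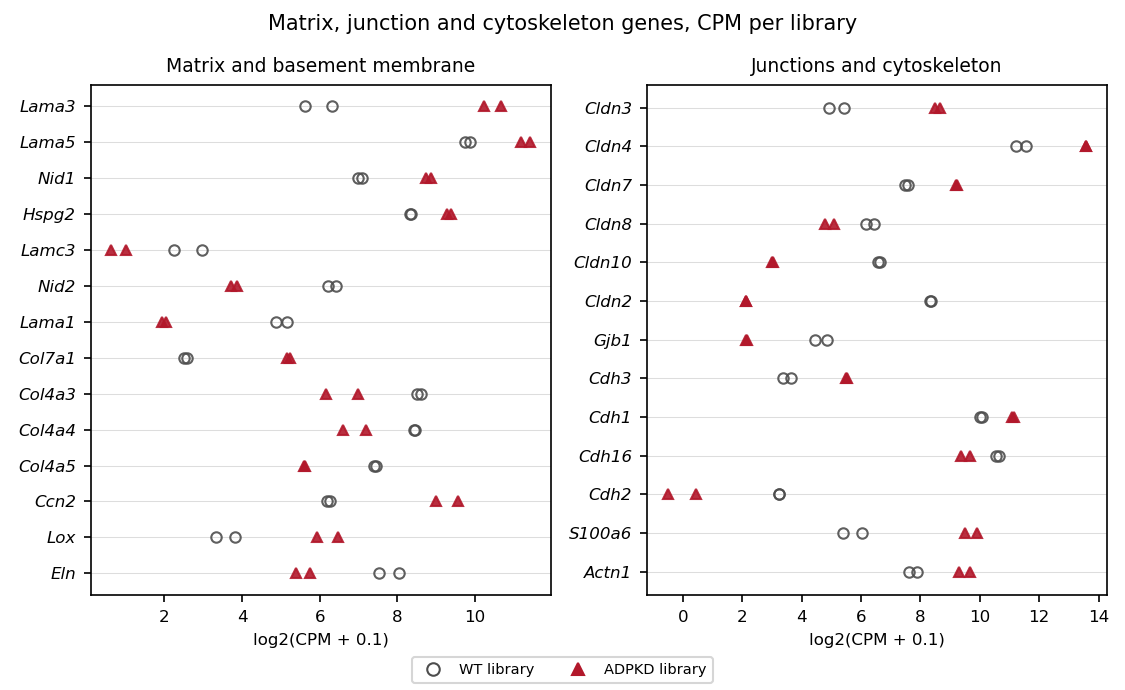
Level of 14 matrix genes (left) and 13 junction and cytoskeleton genes (right) in each vehicle library, as log2 of CPM plus 0.1; open circles are the 2 WT and red triangles the 2 ADPKD libraries. Within the laminin, claudin and cadherin families some members lie to the right and others to the left of the WT circles, such as Cldn4 and Cldn2.

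Of 30 carriers of organic ions and drugs 23 were lower (76.7%) and 3 higher, with a median log2 fold change of -5.39. Slc22a12, the urate transporter, was at 261 and 283 CPM in the WT libraries and 0.363 and 1.68 CPM in the ADPKD libraries, and Slc47a1, an exporter of organic cations, at 249.5 and 216 CPM in WT against 2.54 and 2.23 in ADPKD cells (log2 fold change -8.06 ± 0.36 and -6.60 ± 0.19). Slc22a29 was at 36.6 and 45.2 CPM in the WT libraries and 0 and 0 CPM in the ADPKD libraries. It was at least 514-fold lower, taking 3 counts over the ADPKD group as the limit for a count of 0, which covers counting error only. Sugar and monocarboxylate carriers were lower in 26 of 35 cases and higher in 6. Slc2a2, the basolateral glucose transporter, was at 197 and 217 CPM in WT against 0.571 and 1.74 in ADPKD cells, while Slc2a1, a widely expressed glucose transporter, was at 1037 and 1150.0 CPM in the WT libraries and 2339.5 and 2517 CPM in the ADPKD libraries (log2 fold change -7.49 ± 0.27 and 1.15 ± 0.12). Slc16a3, which exports lactate, was higher by 0.95 ± 0.21 on the log2 scale. The proximal tubule list given above holds carriers of organic ions, sugars and amino acids. The part of those cells in the values of these carriers, here and below, was not tested.

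Amino acid carriers were lower in 24 of 51 cases and higher in 14. Slc3a1 and Slc7a9, which form the cystine transporter, were lower (log2 fold change -6.41 ± 0.22 and -7.08 ± 0.22). Slc7a6, Slc38a1 and Slc7a5 were higher (log2 fold change 2.47 ± 0.14, 1.99 ± 0.12 and 1.06 ± 0.12), with Slc38a1 at 47 and 52.1 CPM in WT against 213 and 179.7 in ADPKD cells. Mitochondrial carriers were lower in 31 of 44 cases (70.5%) and higher in 4, or 2 without either WT library or with the 5 CPM filter. Slc25a5, the ADP/ATP exchanger, was at 1019 and 987 CPM in WT against 409.5 and 378 in ADPKD cells (log2 fold change -1.35 ± 0.10), and Slc25a10, the dicarboxylate carrier, fell by 3.45 ± 0.14 on the log2 scale. The calcium-regulated carriers Slc25a24 and Slc25a25 were higher (log2 fold change 2.49 ± 0.11 and 1.50 ± 0.11).

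Carriers of inorganic ions were lower in 30 of 53 cases and higher in 11. The sodium-proton exchangers Slc9a4 and Slc9a2 were among those that rose (log2 fold change 1.98 ± 0.21 and 1.83 ± 0.11). Sodium pump and proton pump subunits were lower in 18 of 36 cases and higher in 9, beside the intercalated cell markers given with Foxi1, a list that holds proton pump subunits. The part of those cells in the pump values was not tested. Fxyd2, a regulator of the sodium pump, was at 1347 and 1252 CPM in the WT libraries and 304 and 278 CPM in the ADPKD libraries (log2 fold change -2.16 ± 0.10, edgeR adjusted p = 2.04e-09). Aqp2, the vasopressin-regulated water channel, was at 276 and 412 CPM in WT against 613 and 489 in ADPKD cells and did not pass (edgeR adjusted p = 0.0939), but it passed with the replicate block and without robust estimation. Aqp11, whose loss in mice gives cystic kidneys, was at 44 and 33.3 CPM in the WT libraries and 0.882 and 1.47 CPM in the ADPKD libraries (log2 fold change -5.04 ± 0.27, edgeR adjusted p = 6.68e-09). It fell beside the proximal tubule markers given above, with 22 of 22 lower. The part of those cells in the value of Aqp11 was not tested.

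Potassium channels were lower in 18 of 56 cases and higher in 11 (10 and 5 with the 5 CPM filter), and chloride and anoctamin channels in 14 and 8 of 35. TRP, calcium, sodium, P2X and piezo channels were higher in 19 of 61 cases and lower in 15 (9 with the 5 CPM filter), close to the background. Kcnj1, Kcnj10, Kcnj15 and Kcnj16 were lower (log2 fold change -4.24 ± 0.17, -2.25 ± 0.16, -5.91 ± 0.20 and -2.80 ± 0.13), and Kcnn4, a calcium-activated potassium channel, was higher by 1.77 ± 0.35 on the log2 scale. Ano1, a calcium-activated chloride channel, was at 19 and 15.2 CPM in the WT libraries and 148 and 131 CPM in the ADPKD libraries (log2 fold change 3.02 ± 0.14, edgeR adjusted p = 2.04e-09). Itpr3, the calcium release channel, was at 80.5 and 77.6 CPM in the WT libraries and 795 and 789 CPM in the ADPKD libraries and its relative Itpr1 at 324 and 328 CPM in WT against 133 and 128 in ADPKD cells, so that these exchanged places (log2 fold change 3.32 ± 0.13 and -1.32 ± 0.09). Trpv4 and Piezo1, channels opened by stretch and flow, were higher (log2 fold change 1.16 ± 0.09 and 0.87 ± 0.10). Bsnd, a subunit of chloride channels, fell by 4.67 ± 0.28 on the log2 scale. Beside these channels, the markers of the thick ascending limb were lower in 9 of 11 cases, with sums of 6944 and 6775 CPM in WT against 358 and 363 in ADPKD cells. Those of the distal convoluted and connecting tubule, a list that holds Emx1 and Klk1, were lower in 10 of 12 cases and higher in 1. They summed to 4833 and 4303 CPM in WT against 665 and 634 in ADPKD cells. The part of both segments in the channel values was not tested.

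Most detoxifying enzymes were lower, beside the proximal tubule markers given above, a list that holds Cyp2e1 and Cyp4b1. The part of those cells in the enzyme values was not tested. Cytochrome P450 genes were lower in 26 of 43 cases and higher in 4 (2 without either WT library), conjugating enzymes in 28 and 5 of 41, and aldehyde dehydrogenases and aldo-keto reductases in 24 and 4 of 31. Cyp2j5, which makes epoxides of arachidonic acid, was at 727 and 629.5 CPM in the WT libraries and 1.04 and 1.41 CPM in the ADPKD libraries (log2 fold change -9.11 ± 0.21, edgeR adjusted p = 2.35e-11), and Aldh6a1 at 455 and 356 CPM in WT against 25.5 and 18.2 in ADPKD cells (log2 fold change -4.21 ± 0.25). Members that went against their family were Gsto1, at 79.8 and 72.5 CPM in WT against 500.1 and 691 in ADPKD cells, and Akr1b8, at 23.9 and 20.7 CPM in WT against 193 and 241 in ADPKD cells (log2 fold change 2.97 ± 0.15 and 3.28 ± 0.14).

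Dual-specificity phosphatases were higher in 8 of 22 cases and lower in 9. The MAP kinase phosphatases Dusp4 and Dusp7 were higher (log2 fold change 2.43 ± 0.13 and 2.76 ± 0.11) and Dusp6 was lower (log2 fold change -0.80 ± 0.12), at 94.9 and 80.5 CPM in WT against 50.8 and 50.0 in ADPKD cells. SOCS, SPRY, SPRED and other feedback inhibitors were higher in 14 of 32 cases and lower in 5 (3 without WT replicate 1 or ADPKD replicate 1). Spred3 was higher by 1.41 ± 0.15 on the log2 scale, and Spry2 and Errfi1, feedback inhibitors of receptor kinases, went against the larger number (log2 fold change -0.53 ± 0.09 and -0.83 ± 0.09). RGS proteins were higher in 6 of 13 cases and lower in 4. Rgs12 and Rgs16, which shorten G protein signals, rose by 3.74 ± 0.26 and 3.68 ± 0.36 on the log2 scale. Cyclins, CDKs and their inhibitors were higher in 14 of 35 cases and lower in 11 (7 without WT replicate 2), and summed to 1536 and 1553 CPM in WT against 2808 and 2615 in ADPKD cells. The D-type cyclins Ccnd1, Ccnd2 and Ccnd3 were among the lower ones: Ccnd1 was at 127 and 149 CPM in the WT libraries and 83.7 and 101 CPM in the ADPKD libraries, and Ccnd2 and Ccnd3 fell as well (log2 fold change -0.58 ± 0.11, -1.18 ± 0.17 and -0.88 ± 0.12 in this order).

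Canonical histone genes were lower in 8 of 17 tested cases and higher in 1, and the number lower was 4 or 5 without any 1 vehicle library and 3 with the 5 CPM filter. Hist1h1c was at 139 and 145 CPM in WT against 65.6 and 67.9 in ADPKD cells (log2 fold change -1.09 ± 0.11). Of 14 hosts of small nucleolar RNAs 6 were higher and 2 lower. Snhg11 was at 50.8 and 54.7 CPM in the WT libraries and 0.208 and 0.326 CPM in the ADPKD libraries, a fall to traces (log2 fold change -7.59 ± 0.84, edgeR adjusted p = 0.000547). Mir100hg, host of a microRNA cluster, was at 4.43 and 5.38 CPM in WT against 22.5 and 28.3 in ADPKD cells (log2 fold change 2.38 ± 0.20). Processed pseudogenes were higher in 197 of 745 cases and lower in 68, and those of ribosomal proteins in 51 and 0 of 84. Their reads may belong to their parent genes, and how multiply mapped reads were counted is not given here.

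The 4 libraries of inhibitor-treated mice give the same genotype contrast in other mice. They entered the vehicle comparison through the filter, the scaling and the estimate of the spread, but not through its group levels. Their WT group mixes sexes by the counts of Xist and Ddx3y given above. Of 5023 genes higher with vehicle, 4062 (80.9%) also had a log2 fold change above 0 there, against 48.6% of all genes tested. Of 4819 lower genes, 4210 (87.4%) were below 0, against 51.4%. Without WT inhibitor replicate 2 the shares were 79.0% and 85.1%, against 50.1% and 49.6% of all genes tested. The groups of the 2 contrasts differ in treatment as well as in the libraries.

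Hmga2 was at 0.795 and 0.696 CPM in WT against 26.5 and 25.4 in ADPKD cells with inhibitor, again without overlap. Esr1 was at 3.71 and 3.92 CPM in WT against 332 and 303 in ADPKD cells, Vgf at 3.38 and 4.18 CPM in WT against 85.4 and 96.6 in ADPKD cells and Itgb4 at 81.4 and 89.8 CPM in WT against 343 and 314 in ADPKD cells. Between genotypes with inhibitor their log2 fold changes were 5.11, 6.37, 4.59 and 1.94. Prlr was at 53 and 48.2 CPM in WT against 9.18 and 7.87 in ADPKD cells, Hnf4a at 76.8 and 96 CPM in WT against 6.38 and 5.02 in ADPKD cells and Igfbp4 at 269 and 266 CPM in WT against 19.9 and 24.3 in ADPKD cells, each lower in ADPKD cells again.

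Whether the genotype difference itself differed between the 2 sets was tested as an interaction, which was called in 4636 of 17440 genes (26.6%). Of the 9842 genes called with vehicle, 3510 had an interaction toward a smaller and 196 toward a larger genotype difference with inhibitor. Choosing genes by their difference with vehicle favours the first of these directions. The difference was smaller with inhibitor for Prlr (5.92, interaction adjusted p = 4.66e-05 in edgeR), Hnf4a (2.28, interaction adjusted p = 0.000225 in edgeR), Igfbp4 (0.85, interaction adjusted p = 0.00233 in edgeR), Itgb4 (-2.41, interaction adjusted p = 2.34e-06 in edgeR) and Vgf (-1.64, interaction adjusted p = 0.00016 in edgeR). These calls held without WT inhibitor replicate 2. The interaction of Hmga2 did not pass (-0.82, interaction adjusted p = 0.091 in edgeR), and that of Esr1 passed (0.89, interaction adjusted p = 0.0346 in edgeR) but not without WT inhibitor replicate 2 (0.96, adjusted p = 0.107 in edgeR). Over all genes, the number of interactions moved with the library left out, and without WT inhibitor replicate 2 the fit tested 18746 genes.

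**Figure D5:**
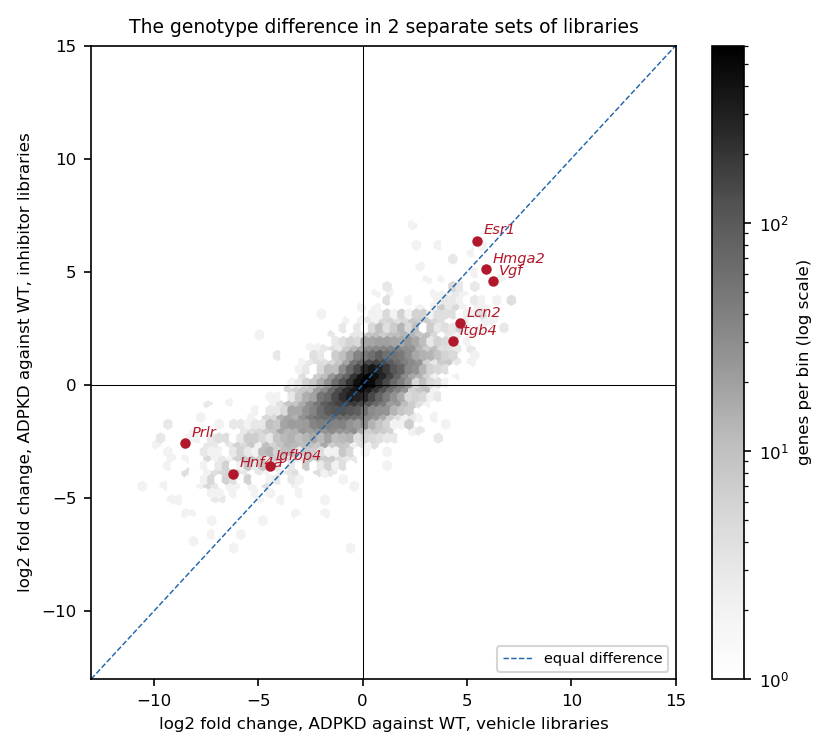
Log2 fold change of ADPKD against WT for all 17440 genes tested, in the vehicle libraries (horizontal) and in the inhibitor libraries (vertical), which share no library; grey shade is the number of genes per bin on a log scale and the dashed line marks equal differences. Most genes with large differences lie on the same side of 0 in both, and named genes such as Prlr and Hnf4a lie nearer to 0 with inhibitor.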

How the data were processed

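The deposited table holds raw counts per gene symbol for 8 RNA-seq libraries. The submitters' processing notes name HISAT2 2.1.0, featureCounts 1.6.0 and DESeq2, and the build mm10 (GRCm38). The annotation release, strand setting and treatment of multiply mapped reads are not given in the sources used here. Vehicle columns carry a genotype and replicate number only and were matched to the samples whose labels give DMSO. GENCODE M21 gave positions for 53642 symbols (97.0%). Mitochondrial genes are listed at 0 counts in every library and were not analysed.

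Library totals were 15108793 to 19702638 counts. Genes passing filterByExpr (minimum count 10, minimum total 15) were fitted with edgeR 4.0.16 (R 4.3.3), with TMM scaling and the robust quasi-likelihood test, in a model of 4 groups with 4 residual degrees of freedom. Tests were two-sided, with Benjamini-Hochberg adjustment over the 17440 genes tested. CPM use the TMM library size, and standard errors are the absolute log2 fold change over the square root of F. The procedure was tested on simulated data.

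Families, marker lists and members were chosen with earlier results of these data known. Named genes are a subset of those fixed by rule: the 15 largest called differences in each direction, and in each family up to 4 called genes a direction by p (mean of at least 2 CPM in the higher group, no overlap) and the 3 highest levels, plus the highest markers of each list, Pkd1, Pkd2 and Creb1. Alternatives were RLE scaling, 2 other filters, non-robust estimation, a replicate block, DESeq2 1.42.0, the 4 vehicle libraries alone, and each library left out. Some genes are not reported here.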

Additional observations from a re-analysis of the deposited data

Results flagged for a closer look

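The difference between ADPKD and WT cells was not the same in the vehicle and in the inhibitor libraries for 4636 of 17440 genes (26.6%), by the interaction term of the edgeR model at an adjusted p below 0.05. Without WT inhibitor replicate 2, the library with Xist counts, 18746 genes were tested, so the number called there cannot be set directly against 4636. Prlr, Hnf4a, Igfbp4, Itgb4 and Vgf were among the 4636 genes, each with the smaller difference in the inhibitor libraries. The treatment and the set of libraries cannot be told apart in this contrast.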

How the results depend on the processing

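The 9842 genes called between ADPKD and WT cells with vehicle numbered 9760 with RLE scaling, 9913 without a filter, 8145 where genes had to reach 5 CPM in 2 libraries, 9856 without robust estimation, 9116 in DESeq2 and 9839 with the 4 vehicle libraries alone. The balance of higher and lower genes turned with the setting: 5023 were higher in the reported fit and 4762 with RLE scaling. Leaving out 1 library gave 7725 to 9063 genes, with 3683 to 4401 higher and 4042 to 4662 lower. The interaction was called in 3037 to 5075 genes with 1 library left out, the lowest without WT vehicle replicate 1. Lower noncoding and histone genes numbered 10, but 6 with the 5 CPM filter and 6 to 8 without 1 library, where fewer genes or samples were tested. Fits without 1 of the inhibitor libraries tested 18746 to 18806 genes, against 17440 in the reported fit. With the replicate number as a block 9782 genes were called. Libraries of the same number correlated in their deviations from the group means at -0.0371 to 0.0806 over 11199 genes. The numbers thus showed no pattern shared across these genes, which cannot exclude a pairing that affects only some of them. Of 278 named genes, each under up to 11 settings, none reversed or lost its call in 3055 combinations, and 3 gained one: Aqp2 passed with the replicate block (log2 fold change 0.73, adjusted p = 0.0374 in edgeR) and without robust estimation (0.68, adjusted p = 0.0242 in edgeR), and Krt20 with the vehicle libraries alone (-0.44, adjusted p = 0.0423 in edgeR). The cause was not tested. Many of the named genes were chosen for a small p or a large difference in the reported fit, which favours keeping a call under other settings. With 2 libraries a group, low counts limit the precision of genes below about 1 CPM.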
